A study of Homo sapiens with 18 samples.

Results

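The genes described here are the nuclear-encoded subunits of the mitochondrial respiratory chain, complexes I to IV with cytochrome c, in SH-SY5Y cells after a short exposure to cocaine. The list held 59 genes, and members were all probe sets that the platform annotation gives to 1 of these symbols alone. This rule gave 107 of the 54675 probe sets on the array, for 53 of the 19775 genes so represented, of which 23 had 1 probe set and 30 had more. Of the other genes, NDUFS8, NDUFC2, NDUFS5 and UQCRH had probe sets shared with further symbols only, and SDHB and UQCRFS1 were not analysed here. The 9 shared probe sets with a member among their symbols were left out of all counts below, and 0 of them passed the test in any comparison.

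SH-SY5Y is a human neuroblastoma line of sympathetic origin. All cells, the untreated ones included, had been differentiated with 10 μM retinoic acid for 7 days and then kept without it for 24 h. They then received 5 μM, 1 μM or 0 μM cocaine for 30 min, and RNA was taken 6 or 24 h later. Each of the 18 Affymetrix U133 Plus 2.0 arrays carried RNA pooled from 3 dishes, with 3 arrays per dose and time, so the p-values measure the spread between pools of dishes of 1 line. The titles of the 5 μM arrays give the dose, although some of their other label fields also carry the words for the untreated control, and the titles were followed.

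The respiratory chain passes electrons from NADH (complex I) and succinate (complex II) through ubiquinone, complex III and the mobile carrier cytochrome c to oxygen at complex IV. Complexes I, III and IV pump protons out of the matrix as they do so, and the ATP synthase uses the gradient, on which neurons depend heavily. Most subunits are encoded in the nucleus, a few of complexes I, III and IV in the mitochondrial genome, and the transcription factors NRF1, the ETS-family factor GABP and YY1 are known to act at many of the nuclear genes.

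The promoters below are shown because they belong to genes whose values are described in detail. Windows of 30 bases are taken from RefSeq promoters (GRCh38.p14, 250 bases before to 50 after the start), written in the direction of the gene, with the matched letters in capitals. The letters searched on both strands were GCATGCGC (NRF1 core), CCGGAAGT (ETS core) and AAGATGGC (YY1 core).
CYCS, NRF1 core, chr7:25125411-25125440, minus strand: catgctcgccaGCATGCGCgcgcaggtcct
COX5B, NRF1 core, chr2:97645915-97645944, plus strand: ggcagagctggGCATGCGCaatttccgccc
COX5B, ETS core, chr2:97646014-97646043, plus strand: gaagcccgcccCCGGAAGTccctcctgtct
NDUFS1, ETS core on the opposite strand, chr2:206159584-206159613, minus strand: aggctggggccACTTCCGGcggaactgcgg
UQCRC1, YY1 core, chr3:48609605-48609634, minus strand: actgcagctggAAGATGGCggcgtccgtgg
NDUFS4, YY1 core, chr5:53560649-53560678, plus strand: ttgcctgcagcAAGATGGCggcggtgtcaa

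Of the 59 listed genes, 51 had a promoter in this table. The NRF1 core lay in 10 of them (19.6%, against 3.27% of all 27305 promoters), the ETS core in 7 (13.7%, against 4.44%) and the YY1 core in 8 (15.7%, against 3.03%). In all, 20 of the 51 held at least 1 of the 3 (39.2%, against 9.94%). In NDUFA8, NDUFB4 and SDHD matches of the NRF1 letters on both strands overlapped and were counted as 1 promoter. A match is a run of letters, not a measured binding site.

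Signals are log2 values from Robust Multichip Average, normalized by the authors separately at each time, so levels were compared within a time only. Array medians lay between 4.96 and 5.01 at 6 h and between 5.30 and 5.35 at 24 h. Of 9 sympathetic neuroblastoma markers measured, 8 were above the signal filter of log2(40), or 5.32; TH, which makes the dopamine precursor, was not (3.50 at 6 h). Of 9 mesenchymal markers 6 were above it, and of 7 blood, endothelium and liver markers 0. CYP26A1, a retinoic acid target, set untreated arrays apart from each other: at 6 h the 6 cocaine arrays had 4.95 to 5.61, against 5.01, 10.69 and 10.99 on untreated arrays 1, 2 and 3. At 24 h cocaine arrays had 4.92 to 6.31, against 5.40, 6.04 and 9.55 on the untreated ones. Member counts and medians at 6 h against untreated cells are therefore also given without untreated arrays 2 and 3. Of single probe sets, only some are given this way.

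The subunits gave strong signals. All 53 genes had at least 1 probe set above the filter at both times, and 88 of the 107 probe sets passed it at 6 h and 92 at 24 h. For the brightest probe set of each gene, the mean at 6 h ran between 8.82 and 12.64, with a median of 11.10. Signals of different probe sets depend on their probes and do not rank transcripts, so the brightest and dimmest genes are named only to show the spread over arrays. In complex I, the core iron-sulfur subunit NDUFS7 ran between 8.66 and 9.07 over the 9 arrays of 6 h, NDUFV2 between 10.31 and 10.56, and the accessory subunits NDUFV3 between 9.21 and 9.54 and NDUFB2 between 12.40 and 12.66. In complex II, the flavoprotein SDHA lay between 9.39 and 9.59 and the brightest probe set of the membrane anchor SDHC between 10.48 and 10.75. In complexes III and IV, UQCRC1 lay between 9.40 and 9.63, UQCRQ between 12.16 and 12.30, COX6B1 between 11.36 and 11.60 and COX7C between 12.56 and 12.69, and the brightest probe set of cytochrome c (CYCS) lay between 12.20 and 12.33. Over all 3 doses these genes thus varied by less than 0.5 on the log2 scale.

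The first question was whether 5 μM cocaine changed the subunits at 6 h. In limma, with all 9 arrays of the time and Benjamini-Hochberg adjustment over 22455 probe sets, 0 of the 88 members passed an adjusted p of 0.10, in an experiment in which 670 probe sets did (2.98%; 1.57% higher and 1.42% lower). The smallest adjusted p of a member was 0.120. The count over all probe sets rested on single arrays: it was 0 without 5 μM array 2, 1 without 5 μM array 3 and 2432 without untreated array 1. The log2 fold changes of the members, 5 over 0 μM, ran between -0.28 and 0.30. Of the 88, 42 were above 0, against 45.4% of all probe sets tested, and 46 below, against 54.6%. The member median was -0.0032, against -0.016 over all probe sets tested. At an unadjusted limma p under 0.05 there were 6 higher and 10 lower members, 16 of 88, where 17.2% of all probe sets reached it.

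Replicate numbers paired the arrays, and a limma fit with the number as a block moved these counts. With the block, 13 members passed, 3 higher and 10 lower, while 18.6% of all probe sets passed (7.75% higher and 10.9% lower). On arrays alone, 15 members were higher and 20 lower on all 3 arrays at 5 μM than on all 3 untreated arrays, against 8.09% and 13.1% of all probe sets. Without untreated arrays 2 and 3, the median was -0.030, 55 of 88 members lay below 0, and 0 members and 0 probe sets in all passed, 1 untreated array being left that was assumed to vary like the others.

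**Figure D1:**
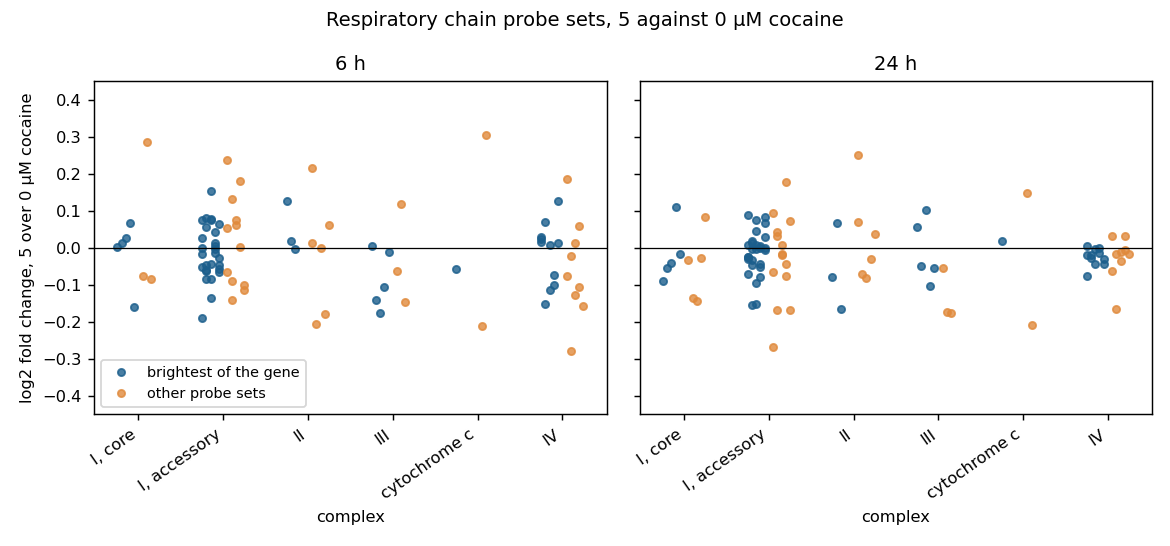
Log2 fold change of 5 over 0 μM cocaine (y axis) for each member probe set above the signal filter, by complex (x axis), at 6 h on the left and 24 h on the right; blue points are the brightest probe set of each gene at 6 h and orange points the others. Members lie on both sides of 0 in every complex at 6 h, between -0.28 and 0.30.

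No complex stood on 1 side of 0 at 6 h. The core subunits of complex I, among them carriers of the flavin and iron-sulfur clusters, had 5 probe sets above and 3 below 0 (median 0.0075). The accessory subunits had 18 above and 22 below (median -0.0082). Complex II, the succinate dehydrogenase, had 6 above and 3 below (median 0.012). Complex III had 2 above and 6 below (median -0.085), and complex IV 10 above and 10 below (median -0.0080). The 3 probe sets of CYCS had 1 above and 2 below.

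In complex III, UQCRC1, a core protein on the matrix side, had the smallest p of all members. Its signals were 9.45, 9.43 and 9.40 at 5 μM, against 9.63, 9.59 and 9.60 in untreated cells. All 3 treated arrays were lower, and the groups did not overlap. The log2 fold change was -0.18 (SE 0.0469), with an adjusted limma p of 0.120, or 0.0427 with the replicate block. At 1 μM its arrays had 9.60, 9.55 and 9.53, close to the untreated ones (log2 fold change -0.05, adjusted limma p 0.691). Its partner UQCRC2 (200883_at) had 9.78, 9.85 and 9.81 at 5 μM, against 9.89, 10.05 and 9.93 in untreated cells, again without overlap (log2 fold change -0.15, adjusted limma p 0.232, or 0.0885 with the block).

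In complex I, NDUFV2, an iron-sulfur core subunit of the NADH-binding arm, had 10.34, 10.31 and 10.31 at 5 μM, against 10.54, 10.44 and 10.46 in untreated cells. The groups did not overlap, and the log2 fold change was -0.16 (SE 0.0517, adjusted limma p 0.175, or 0.0568 with the block). NDUFS4, an accessory subunit of the same arm whose loss causes Leigh syndrome, had 9.67, 9.76 and 9.76 at 5 μM, against 9.80, 10.02 and 9.93 in untreated cells. Treated arrays were lower here too, by a log2 fold change of -0.19 (SE 0.0637, adjusted limma p 0.188, or 0.0667 with the block).

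Other complex I probe sets pointed the other way. NDUFC1, a small accessory subunit of the membrane arm, had 6.58, 6.73 and 6.70 on its dimmer probe set (232146_at) at 5 μM, against 6.39, 6.35 and 6.56 in untreated cells. The lowest treated array was just above the highest untreated one, and the log2 fold change was 0.24 (SE 0.0713, adjusted limma p 0.151, or 0.0492 with the block). NDUFS1, the largest core subunit, had 7.13, 7.32 and 7.05 on a dimmer probe set (236356_at) at 5 μM, against 7.04, 6.82 and 6.79 in untreated cells (log2 fold change 0.29, SE 0.0960, adjusted limma p 0.188, or 0.109 with the block). Without untreated arrays 2 and 3 the value of 236356_at was 0.13, since untreated array 1 was close to the treated ones. The brightest NDUFS1 probe set, 203039_s_at, was at 0.0019, and 229647_at was at -0.08.

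In complex II, the probe set 215088_s_at of SDHC had 9.79, 9.55 and 9.59 at 5 μM, against 9.86, 9.84 and 9.84 in untreated cells. Treated arrays 2 and 3 lay further below than array 1 (log2 fold change -0.21, SE 0.0681, adjusted limma p 0.184, or 0.0705 with the block). In complex IV, COX5B, a zinc-binding subunit on the matrix side, had probe sets on both sides of 0. Its probe set 211025_x_at had 11.28, 11.23 and 11.21 at 5 μM, against 11.45, 11.41 and 11.33 in untreated cells (log2 fold change -0.16, adjusted limma p 0.188, or 0.0576 with the block). Its dimmer probe set 213736_at had 6.84, 6.87 and 6.88 at 5 μM, against 6.74, 6.73 and 6.57 in untreated cells (log2 fold change 0.19, adjusted limma p 0.169, or 0.0729 with the block).

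CYCS showed the same division. The probe set 244546_at had 7.93, 7.84 and 8.24 at 5 μM, against 7.64, 7.76 and 7.70 in untreated cells, with array 3 high (log2 fold change 0.30, SE 0.108, adjusted limma p 0.206, or 0.0978 with the block). The probe set 229415_at had 8.07, 8.15 and 8.25 at 5 μM, against 8.25, 8.45 and 8.40 in untreated cells (log2 fold change -0.21, SE 0.0811, adjusted limma p 0.236, or 0.0427 with the block). The brightest CYCS probe set, 208905_at, had a log2 fold change of -0.06 (adjusted limma p 0.598).

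The other members that passed with the block were also lower. COX7B, a small membrane subunit of complex IV, had the lowest log2 fold change of all members on 239252_at, with 8.39, 8.35 and 8.59 at 5 μM, against 8.61, 8.82 and 8.75 in untreated cells (-0.28, adjusted limma p 0.213, or 0.0523 with the block). SDHC 238191_at had 7.94, 7.91 and 7.77 at 5 μM, against 8.06, 8.08 and 8.01 in untreated cells (-0.18, adjusted limma p 0.242, or 0.0784 with the block). On both probe sets the groups did not overlap. UQCRB, a ubiquinone-binding subunit of complex III, overlapped on 205849_s_at, with 11.39, 11.57 and 11.51 at 5 μM, against 11.48, 11.75 and 11.66 in untreated cells (-0.14, adjusted limma p 0.414, or 0.0900 with the block). For UQCRC2 200883_at, NDUFS4, CYCS 229415_at, COX7B 239252_at and this UQCRB probe set, untreated array 1 was the lowest untreated one. Their falls are thus smaller against that array alone. UQCRC1, NDUFV2, SDHC 215088_s_at and COX5B 211025_x_at had their highest untreated signal on array 1.

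**Figure D2:**
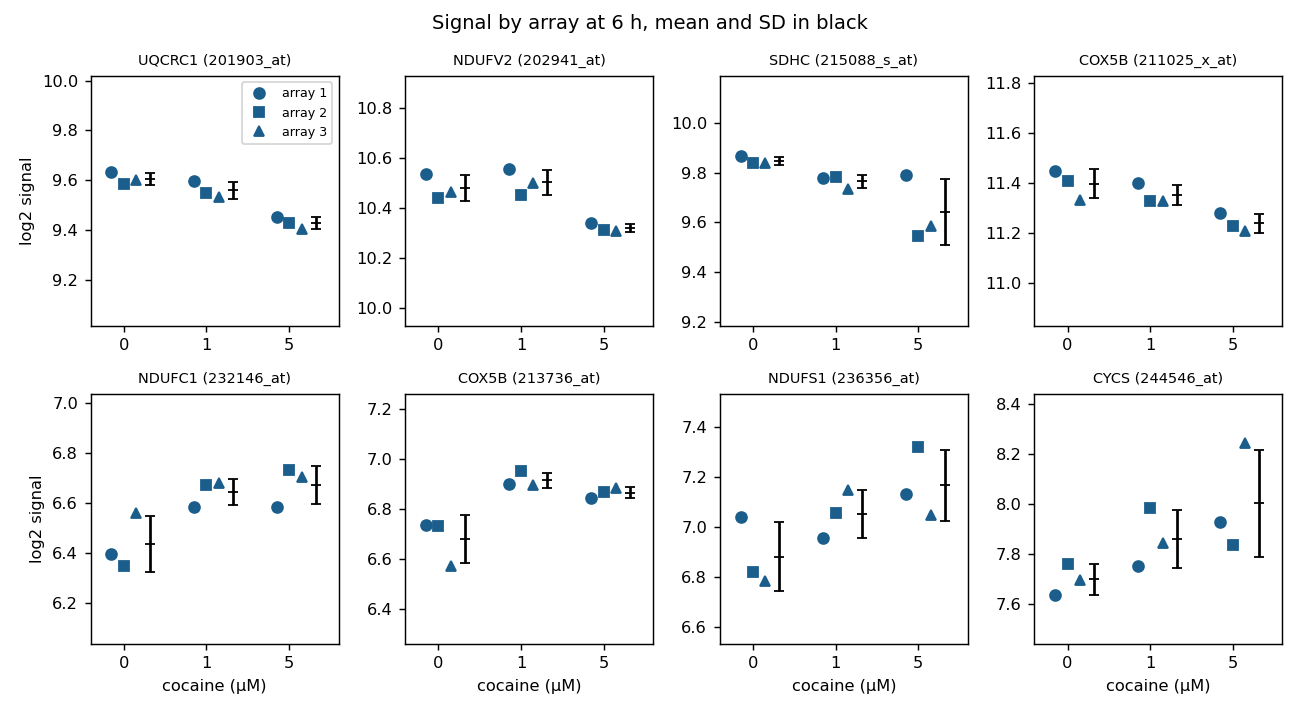
Log2 signal (y axis) at 0, 1 and 5 μM cocaine (x axis) at 6 h for the 4 lower and the 4 higher member probe sets with the smallest p in 5 against 0 μM; points are single arrays, shaped by replicate number, with the mean and SD of 3 arrays in black. UQCRC1 and NDUFV2 lie lower at 5 μM than in untreated cells on all arrays, and the 4 higher probe sets have signals between 6.35 and 8.24.

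Probe sets of 1 gene often disagreed. At 6 h, 21 genes had over 1 probe set above the filter, and in 13 of them these lay on both sides of 0. The SDHC probe sets, 7 in number, ran between -0.21 and 0.21, those of COX5B between -0.16 and 0.19, and those of CYCS between -0.21 and 0.30. The brightest probe sets of these 3 genes were at 0.02, 0.01 and -0.06. Over the 53 brightest probe sets, log2 fold changes ran between -0.19 and 0.15. Of these, 0 passed without the block, where 2.98% of all probe sets did. With the block 4 passed, all lower, where 18.6% of all probe sets did (7.75% higher and 10.9% lower).

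**Figure D3:**
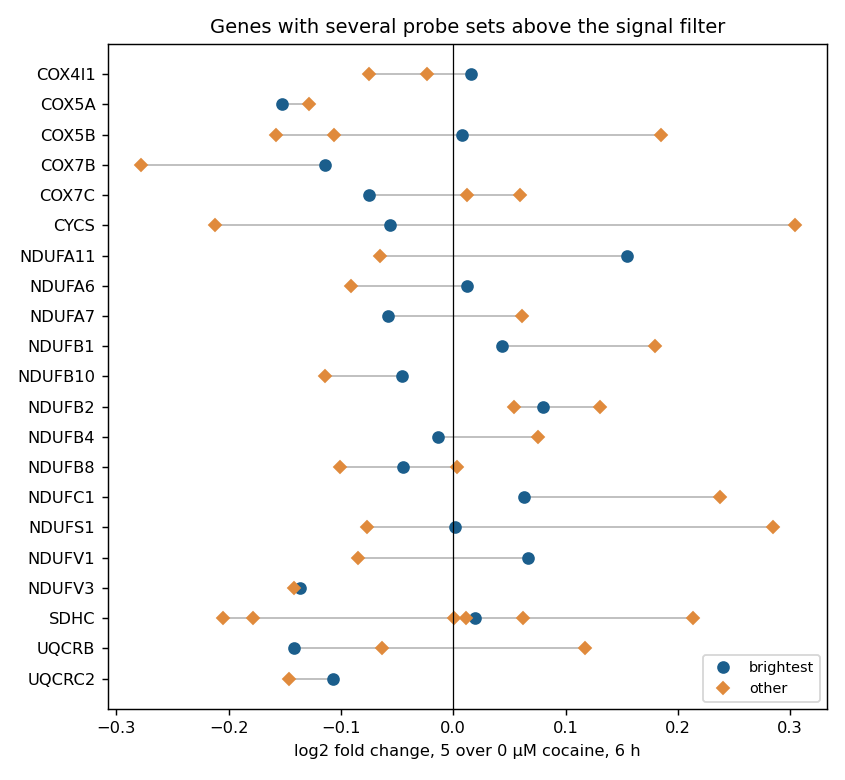
Log2 fold change of 5 over 0 μM cocaine at 6 h (x axis) of every probe set above the filter, for the 21 genes with several (y axis); blue circles are the brightest probe set, orange diamonds the others, and the grey line spans the gene. SDHC, COX5B, CYCS and NDUFS1 have probe sets on both sides of 0, and for CYCS they reach -0.21 and 0.30.

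Intervals from the fit without the block give a range of change for each probe set on its own. They take the untreated arrays as 1 group and do not bound all members jointly. In 5 against 0 μM at 6 h, the 95% limma interval lay within a 1.5-fold change either way for 88 of 88 members, and its farthest bound was 1.46-fold. For the 53 brightest probe sets the farthest bound was 1.26-fold. At the median the interval reached 0.14 on the log2 scale to either side.

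At 1 μM and 6 h, members lay mostly above 0, and 0 passed in limma, as did 0 of all probe sets (0.00%). Of the 88, 66 were above 0, against 48.2% of all probe sets tested, and 22 below, against 51.8%, and the median was 0.065, against -0.0057. On arrays alone, 20 members were higher on all 3 arrays at 1 μM than on all untreated arrays, against 7.27% of all probe sets, and 4 were lower, against 10.2%. In complex I, 36 of 40 accessory probe sets were above 0 (median 0.078), while in complex III 3 of 8 were (median -0.034). With the replicate block, 7 members passed, 6 higher and 1 lower, where 12.5% of all probe sets passed (5.11% higher and 7.44% lower). Without untreated arrays 2 and 3 the median was 0.043, and 27 of 88 lay below 0, and without 1 μM array 1 it was 0.032, with 25 below. Some array measures set the 1 μM arrays apart from the untreated ones. The GAPDH difference between 3′ and 5′ probe sets was 0.165 ± 0.00997 at 1 μM and 0.232 ± 0.0207 in untreated cells. The log2 signal of the hybridization control BioD minus that of Cre was -1.53 ± 0.00847 at 1 μM and -1.06 ± 0.0475 in untreated cells (SD, n = 3 each, exact 2-sided permutation p 0.1 for both). The ACTB difference between 3′ and 5′ probe sets overlapped, with 0.655 ± 0.0625 at 1 μM and 0.853 ± 0.286 in untreated cells (exact 2-sided permutation p 0.4). The BioD difference was -1.58 ± 0.0684 at 5 μM, also apart from untreated cells, and the part of these measures in the results against untreated cells was not tested. The 5 against 0, 1 against 0 and 5 against 1 μM comparisons of a time share arrays, so they are not independent of each other.

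Of the members that passed with the block at 1 μM, 2 were the brightest probe sets of their genes. COX8A, a small membrane subunit of complex IV, had 12.17, 12.06 and 12.07 at 1 μM, against 12.03, 11.85 and 11.91 in untreated cells (log2 fold change 0.17, adjusted limma p 0.282, or 0.0935 with the block). NDUFAB1, the mitochondrial acyl carrier protein, had 12.01, 11.96 and 11.99 at 1 μM, against 11.87, 11.79 and 11.84 in untreated cells (log2 fold change 0.15, adjusted limma p 0.227, or 0.0789 with the block). On both probe sets every treated array was above every untreated one, of which untreated array 1 was the highest. The others were COX5B 213736_at (0.24), NDUFC1 232146_at (0.21), NDUFB1 243630_at (0.28) and SDHC 216591_s_at (0.19), and SDHC 238191_at was the lower one (-0.18).

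Between 5 and 1 μM at 6 h most members lay on 1 side of 0. Of the 88, 78 were lower at 5 μM, against 53.9% of all probe sets, with a median log2 fold change of -0.068, against -0.0083. All 50 members with a mean signal over 10 were below 0, against 57.4% of all probe sets in that class. The size was small: values ran between -0.19 and 0.14, and in limma 0 members passed with or without the block, as did 0 of all probe sets (0.00%), the smallest member adjusted p being 0.619. At an unadjusted p under 0.05 there were 9 members, all lower, where 6.45% of all probe sets reached it. On arrays alone, 30 members were lower on all 3 arrays at 5 μM than on all 3 at 1 μM, against 7.28% of all probe sets, and 0 were higher on all 3, against 6.26%.

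This tilt was shared by most complexes and by each replicate number. In complex IV, 20 of 20 probe sets were below 0 (median -0.060), in complex I 38 of 40 accessory probe sets (median -0.087) and 6 of 8 core ones, in complex III 7 of 8, and in complex II 5 of 9. Within replicate 1, 79 of 88 members were lower at 5 μM than at 1 μM, within replicate 2 69, and within replicate 3 67. The median differences were -0.0999, -0.0627 and -0.0452, against 0, -0.0109 and -0.0009 over all probe sets.

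Of the 9 members at p under 0.05, NDUFV2 had the smallest p, with 10.34, 10.31 and 10.31 at 5 μM, against 10.56, 10.45 and 10.50 at 1 μM (log2 fold change -0.18, SE 0.0517, adjusted limma p 0.619). NDUFB10, a membrane arm subunit, was at -0.18 (223112_s_at), NDUFV3 at -0.18 (226616_s_at), NDUFA10 at -0.17 and NDUFS4 at -0.17. The other 4 were NDUFA7 (-0.15), NDUFA11 225304_s_at (-0.14), NDUFA8 (-0.13) and UQCRC1 (-0.13), so 8 of the 9 were complex I probe sets, as were 48 of the 88 members tested.

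Without replicate 1 of the 1 μM arrays, 68 of 88 were below 0, and without any other single array of the time 76 to 78 were. The RNA quality measures also differed on these arrays: the log2 difference between 3′ and 5′ ACTB probe sets was 0.517 ± 0.0227 at 5 μM and 0.655 ± 0.0625 at 1 μM, and that of GAPDH 0.210 ± 0.0280 at 5 μM and 0.165 ± 0.00997 at 1 μM (SD, n = 3 each; exact 2-sided permutation p 0.1 for both, the smallest that 3 against 3 allows). Their part in the tilt was not tested.

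**Figure D4:**
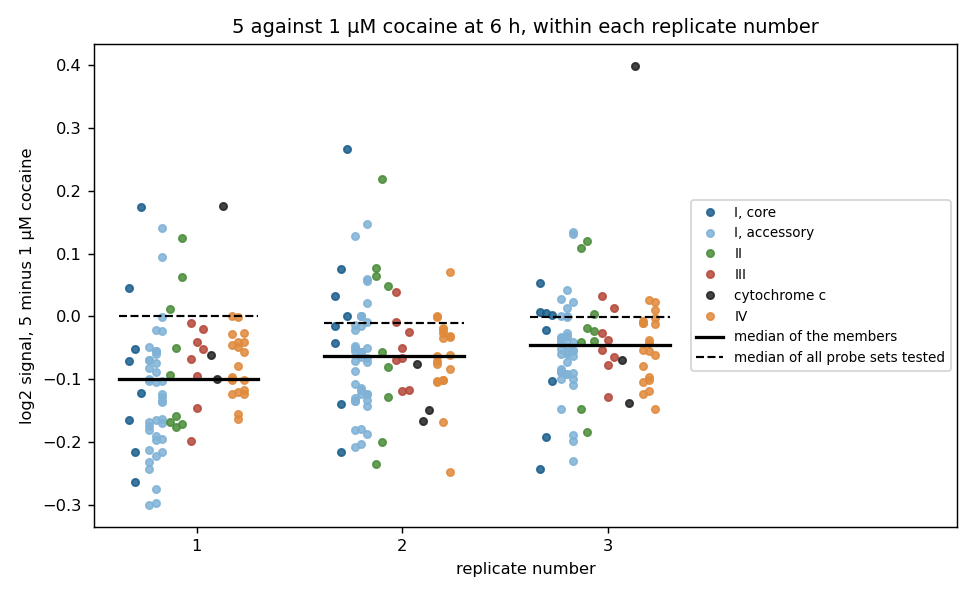
Log2 signal at 5 μM minus that at 1 μM cocaine (y axis) at 6 h for each of 88 member probe sets, within replicate numbers 1, 2 and 3 (x axis) and coloured by complex; solid lines are member medians and dashed lines medians of all probe sets tested. Member medians of -0.0999, -0.0627 and -0.0452 lie below the dashed lines near 0.

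At 24 h, 0 of the 92 members passed in 5 against 0 μM, where 3 of 24307 probe sets did (0.0123%), and 0 with the block. Of the members, 62 were below 0, against 50.1% of all probe sets, and 30 above, against 49.9%, with a median of -0.020, against -0.00024, and a range between -0.27 and 0.25. This rested on untreated array 1: without it 45 of 92 were below 0 and the median was 0.00041, and within replicates 1, 2 and 3 the members lower at 5 μM than in untreated cells numbered 67, 45 and 57. In complex IV, 17 of 20 probe sets were below 0, with a median of only -0.019. At an unadjusted limma p under 0.05 there were 1 higher and 3 lower members, where 7.20% of all probe sets reached it. On arrays alone, 14 members were lower on all 3 arrays at 5 μM than on all untreated arrays, against 4.51%, and 2 were higher, against 5.94%. The 95% limma interval lay within 1.5-fold for 91 of 92 members. ACTB differed in the other direction at this time, with 0.879 ± 0.174 at 5 μM and 0.584 ± 0.0860 in untreated cells (SD, n = 3 each; exact 2-sided permutation p 0.1), and its part was not tested.

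UQCRC2 (200883_at) had the smallest p at 24 h, with 10.01, 10.12 and 10.13 at 5 μM, against 10.32, 10.23 and 10.23 in untreated cells. The groups did not overlap (log2 fold change -0.18, SE 0.0566, adjusted limma p 0.577), as at 6 h. SDHD, the second membrane anchor of complex II, had 9.81, 9.91 and 9.76 at 5 μM, against 10.06, 9.99 and 9.93 in untreated cells (-0.17, adjusted limma p 0.611). NDUFA10 (217860_at), an accessory subunit bound to the membrane arm, had 9.66, 9.78 and 9.69 at 5 μM, against 9.85, 9.83 and 9.92 in untreated cells (-0.15, adjusted limma p 0.627). Both were lower on all 3 treated arrays. The other NDUFA10 probe sets tested at 24 h were above 0, 1555548_at at 0.04 and 227206_at at 0.09.

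COX4I1, a complex IV subunit with regulatory roles, overlapped on 213758_at, with 7.69, 7.58 and 7.64 at 5 μM, against 7.68, 7.78 and 7.95 in untreated cells (-0.17, adjusted limma p 0.713). Among probe sets above 0, SDHC 232107_at had 5.92, 5.99 and 6.21 at 5 μM, against 5.77, 5.78 and 5.82 in untreated cells (0.25, adjusted limma p 0.606). NDUFV1, which binds NADH and the flavin, had 10.68, 10.62 and 10.68 at 5 μM, against 10.58, 10.54 and 10.54 in untreated cells (0.11, adjusted limma p 0.701). These treated arrays were above all untreated ones, by little. UQCRC1 and CYCS 229415_at, which had been lower at 6 h, were at 0.10 and 0.15 at 24 h (adjusted limma p 0.766 and 0.778), with overlapping arrays.

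At 24 h 0 members passed in 1 against 0 μM (0.00% of all probe sets), and 54 of 92 were above 0, against 59.6% of all (median 0.0055, against 0.018). In 5 against 1 μM 0 passed (0.00823% of all), and 71 of 92 were below 0, against 57.1% of all (median -0.028, against -0.016). Within replicates 1, 2 and 3, 70, 56 and 58 of the 92 were lower at 5 μM than at 1 μM.

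Whether the response to 5 μM differed between the times was tested as a contrast over 18 arrays, the change at 6 h minus the change at 24 h. Of 88 members tested at both times 1 passed, UQCRC1, where 4.21% of all probe sets did (941 of 22358). UQCRC1 had 10.03, 9.87 and 9.95 at 5 μM and 24 h, against 9.88, 9.81 and 9.86 in untreated cells, while at 6 h all treated arrays were lower. The difference was -0.28 (SE 0.0697, adjusted limma p 0.0546, or 0.00912 with the block). It no longer passed without 5 μM array 2 or 3 of 6 h, untreated array 2 of 24 h or 5 μM array 1 of 24 h (adjusted limma p 0.111, 0.121, 0.129 and 0.117). With the block, 11 members passed, 7 higher and 4 lower, where 15.9% of all probe sets did. Among them were both dimmer CYCS probe sets in opposite directions, 244546_at at 0.51 and 229415_at at -0.36 (adjusted limma p with the block 0.0369 and 0.00553).

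**Figure D5:**
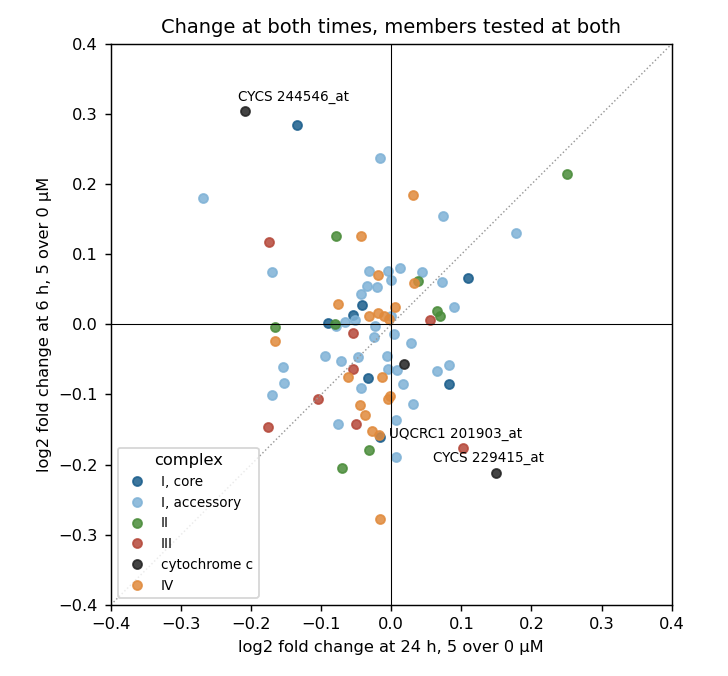
Log2 fold change of 5 over 0 μM cocaine at 6 h (y axis) and at 24 h (x axis) for the 88 member probe sets tested at both times, coloured by complex; the dotted line marks equal change. UQCRC1 lies at -0.18 and 0.10, and the CYCS probe sets 244546_at and 229415_at lie on opposite sides of the line.

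Genes around the chain were set beside the subunits at 6 h. In 5 against 1 μM, where 78 of 88 members and 53.9% of all probe sets were below 0, so were 23 of 30 ATP synthase probe sets (median -0.046). The same held for 48 of 67 probe sets of assembly factors (median -0.056) and 10 of 10 of mitochondrially encoded transcripts (median -0.11). Of 36 probe sets of mitochondrial biogenesis regulators, 14 were below 0 (median 0.039). In these lists 0 passed, as did 0 of all probe sets. Of the 30 ATP synthase probe sets, 0 passed in 5 against 0 μM (median -0.037). With the block 1 higher and 2 lower passed, where 18.6% of all probe sets did. ATP5ME (207335_x_at) and ATP5F1E (217801_at), both small subunits, were at -0.18 each (adjusted limma p 0.163 and 0.243, or 0.0553 and 0.0447 with the block). Of the 67 probe sets of assembly factors 1 passed in 5 against 0 μM, where 2.98% of all probe sets did. This was SDHAF3, which helps mature complex II, with 8.54, 8.34 and 8.57 at 5 μM, against 8.94, 9.25 and 8.79 in untreated cells. It fell by 0.51 on the log2 scale (SE 0.117, adjusted limma p 0.0893).

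Of 36 probe sets of mitochondrial biogenesis regulators 2 passed in 5 against 0 μM, both higher, where 2.98% of all probe sets did (1.57% higher). TFAM, which packages mitochondrial DNA and takes part in its transcription, had 9.82, 9.82 and 9.90 at 5 μM, against 9.49, 9.34 and 9.28 in untreated cells (log2 fold change 0.48, SE 0.0644, adjusted limma p 0.0353). YY1 rose on 213494_s_at, with 6.28, 6.25 and 6.42 at 5 μM, against 5.82, 5.82 and 5.83 in untreated cells (0.50, SE 0.0579, adjusted limma p 0.0211). The groups did not overlap on either probe set. Other TFAM probe sets differed from this one, 208541_x_at at 0.21 (adjusted limma p 0.136) and 203177_x_at at -0.05 (adjusted limma p 0.784). For both genes the change differed between the times, by 0.66 for TFAM and 0.67 for YY1 (adjusted limma p 0.00185 and 0.0186). The 5 other YY1 probe sets did not pass, with log2 fold changes between -0.05 (200047_s_at) and 0.07 (201901_s_at). Without untreated arrays 2 and 3, when 0 probe sets in all passed with 1 untreated array left, the log2 fold changes were 0.36 for TFAM, 0.50 for YY1 and -0.45 for SDHAF3.

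Of 10 probe sets of mitochondrially encoded transcripts, 9 were below 0 in 5 against 0 μM at 6 h, against 54.6% of all probe sets (median -0.15). Of the 10, 1 passed, where 2.98% of all did. This was COX3 (238199_x_at), a mitochondrially encoded complex IV subunit. It had 8.46, 8.22 and 8.46 at 5 μM, against 9.14, 9.35 and 9.42 in untreated cells (-0.92, SE 0.0967, adjusted limma p 0.0176). Without untreated arrays 2 and 3 it was at -0.76. ND2, a complex I subunit, had 13.26, 13.18 and 13.17 at 5 μM, against 13.36, 13.55 and 13.44 in untreated cells (-0.25, adjusted limma p 0.102, or 0.0450 with the block). With the block 5 of the 10 passed, all lower, where 18.6% of all probe sets did (10.9% lower). At 24 h, 10 of 10 were below 0, against 50.1% of all (median -0.25, median SE 0.148). There 0 passed, 0 reached an unadjusted limma p under 0.05, and 0 were lower on all 3 treated arrays than on all untreated ones. The ACTB difference between 3′ and 5′ probe sets also set the treated arrays apart at 6 h, with 0.517 ± 0.0227 at 5 μM and 0.853 ± 0.286 in untreated cells (SD, n = 3 each; exact 2-sided permutation p 0.1), and its part was not tested.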

How the data were processed

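RNA of RA-differentiated SH-SY5Y cells was hybridized to 18 arrays, 3 per dose and time. Values were deposited as log2 signals, which the authors had computed by RMA in the affy library, summarizing probes by median polish and handling the 2 times apart; the submitters' notes name RMA and limma, and versions are not given in the sources used here. RMA pulls arrays of a time to 1 distribution, so a shift shared by all genes cannot be seen. Probe sets were named from the platform annotation (41091 with 1 symbol, 1801 with several, 11721 with none, 62 controls); 41043 of those with 1 symbol matched RefSeq, and NDUFA4 stands there as COXFA4.

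Probe sets with a symbol and a mean over log2(40) at a time were fitted with limma 3.58.1 (R 4.3.3), 1 coefficient per dose over the 9 arrays of the time, and called at an adjusted p under 0.10, without a block. Same-numbered arrays deviated together (correlations of deviations from group means 0.377 to 0.768 at 6 h and 0.424 to 0.733 at 24 h, 9 pairs each; different numbers at most 0.165), a pairing seen in the data and not given by the labels, so fits with the number as a block are given beside results they change. Alternatives changed the filter, arrays, scaling, variance trend, threshold and probe sets per gene. Named were members called in any comparison, up to 4 with the smallest p per direction in 5 against 0 μM at each time, and the brightest and dimmest gene of each complex; of other lists, probe sets with the smallest p; members called only with the block within a time were added after their values were seen. Members and lists were chosen with earlier results of these data known. The scripts were tested on simulated data, and figures were drawn with matplotlib 3.10.9. The number of arrays limits the precision.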

Additional observations from a re-analysis of the deposited data

Results flagged for a closer look

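The response of UQCRC1 (201903_at), a core protein of complex III, to 5 μM cocaine differed between the times in a test of that difference. Its log2 fold change over untreated cells was -0.18 at 6 h and 0.10 at 24 h, a difference of -0.2793 (SE 0.0697, adjusted limma p 0.0546). This was 1 of 88 members tested, where 4.21% of all probe sets passed. UQCRC1 no longer passed without some single arrays, without the signal filter or with quantile normalization. Groups of 3 arrays are too small for a test of single outlying arrays.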

How the results depend on the processing

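The count of members called in 5 against 0 μM at 6 h was 0. It became 13 with the replicate block, the fit in which the numbers pair the arrays. It became 1 without the signal filter (NDUFA10 1555548_at, higher, log2 fold change 0.35). It was also 1 with arrays centred on their medians (UQCRC1, adjusted limma p 0.0854) or with an intensity trend (UQCRC1, 0.0981). Leaving out 1 array gave 0 to 3, the 3 being NDUFS4, COX5B 213736_at and NDUFS1 236356_at without untreated replicate 1. The count over all probe sets ran between 0 (without 5 μM replicate 2) and 2432 (without untreated replicate 1). In 1 against 0 μM at 6 h the block gave 7, and leaving out 1 array 0 to 1, the 1 (COX5B 213736_at) without untreated replicate 1.

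For the difference between times, 1 member was called as reported, 0 without the filter or at an adjusted p under 0.05, 3 with a filter at log2(100), 11 with the replicate block and 2 with quantile normalization. Leaving out 1 array gave 0 to 5: 5 without untreated replicate 1 of 6 h; 2 without untreated replicate 3 or 5 μM replicate 1 of 6 h, or untreated replicate 1 or 5 μM replicate 2 of 24 h; and 0 without 5 μM replicate 3 of 6 h, or untreated replicate 2 or 5 μM replicate 1 of 24 h. UQCRC1 passed neither with quantile normalization (-0.24, adjusted limma p 0.114) nor without the filter (0.116). The cause was not tested.

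The median log2 fold changes of members moved, under the alternatives run, by less than the SD of the arrays' member medians pooled over the 3 doses of the time, and those near 0 changed sign. In 5 against 0 μM at 6 h the median was 0.021 with quantile normalization, 0.0098 without untreated replicate 1 and 0.00070 without 5 μM replicate 2. In 5 against 0 μM at 24 h it was 0.00041 without untreated replicate 1. In 1 against 0 μM at 24 h it was -0.0012 with quantile normalization, and leaving out 1 array gave -0.0028 to 0.024. In 1 against 0 μM at 6 h leaving out 1 array gave 0.032 to 0.077, and in 5 against 1 μM at 6 h -0.092 to -0.057. The block changed no call in the other 4 comparisons within a time. Small differences near the filter rest on dim probe sets.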
